A study of Homo sapiens with 12 samples.

Results

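MicroRNA levels were compared between SUM159 cells carrying an shRNA against Dicer and SUM159 cells carrying a control shRNA, both treated with metformin. The comparison used the 3 arrays titled as Dicer knockdown with metformin and the 3 titled as control with metformin, which were 6 of the 12 arrays in the series. The other 6 arrays held the same lines with vehicle and were used for the common estimate of spread and for 1 later comparison. SUM159 is a human breast cancer line of mesenchymal, triple-negative type, grown here in DMEM/F-12 with fetal bovine serum, insulin and hydrocortisone. Both lines had been stably infected with lentiviral PLKO.1 vectors. The Dicer line carried an shRNA against Dicer and the control line a scrambled shRNA in the same backbone. Log-phase cells received 0.5 mM metformin, a drug used against type 2 diabetes, for 24 h. The vehicle of the other groups was PBS. Each line represents a single hairpin, and how many stable clones or infections stood behind it is not given in the sources used here. The labels call the 3 replicates of a group biological, and nothing further says whether they came from separate cultures, so the tests measure the spread between these samples.

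Dicer is the cytoplasmic RNase III enzyme that cuts the loop off a precursor hairpin and releases a duplex of a mature and a passenger strand. An Argonaute protein keeps 1 of these strands, and bases 2 to 8 of that strand, the seed, pair with target mRNAs. Some hairpins reach Dicer without Drosha, among them mirtrons, which are short spliced introns, and miR-451 matures without Dicer. Dicer mRNA has no probe on a microRNA array, so these data hold no check of the knockdown, and miR-451 was detected on none of the 6 metformin arrays.

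All 6 metformin arrays lay on 1 slide. The control shRNA arrays held positions 1 to 3 of its first row, and the Dicer shRNA arrays held position 4 of that row and positions 1 and 2 of the second, so the line and the place on the slide cannot be told apart. The source names of both metformin groups disagreed with the titles and the characteristics, and the titles were followed. The label protocol names an amplification kit for mRNA although the features are microRNAs. Of 851 human names, 193 were detected on at least 1 metformin array and 113 on all 6. The number detected per array was 159, 151 and 163 in control shRNA cells and 130, 152 and 141 in Dicer shRNA cells. The groups overlapped, and the difference of -16.7 had an exact two-sided permutation p of 0.2, where 3 arrays against 3 allow no less than 0.1. The entry miR-923, later withdrawn as a fragment of ribosomal RNA, made up 79.5% to 82.3% of the human signal of control shRNA arrays and 80.7% to 83.8% of that of Dicer shRNA arrays. The number of arrays limits the precision of every value below.

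Values are total gene signals, divided on each array by the 75th percentile of 98 human microRNAs that all 12 arrays detected and brought back to a common scale. Scaled signals below a floor of 3.01 were set to the floor. A change is the log2 difference of Dicer shRNA minus control shRNA under metformin with the SE of the limma fit (3 arrays per group), and a microRNA passed when its Benjamini-Hochberg adjusted p over 208 tested microRNAs was under 0.05. Signals of different microRNAs come from different probes and were not set against each other. Names follow the array design without the prefix hsa-, and an asterisk marks the less abundant strand of a hairpin in that older naming.

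Under metformin, the Dicer shRNA cells had higher levels of a set of well-known guide strands and lower levels of a larger, more mixed set. miR-29a, miR-125b, let-7b, miR-100, miR-25, miR-221, miR-21, miR-24 and miR-222 were each more than 4-fold higher under the reported scaling. After scaling to entries that derive from tRNA, rRNA or snRNA, which gave the lowest values, the log2 changes were 0.98 for miR-222, 1.00 for miR-24, 1.05 for miR-21, 1.26 for miR-221 and 1.48 for miR-100. The sizes for miR-29a, miR-125b, let-7b and miR-25 rest on control arrays at the floor. miR-320c, miR-10b*, miR-129*, miR-425*, miR-1275, miR-630 and miR-155 were among the lower ones. Of 208 tested microRNAs 81 passed (38.9%), 29 higher (13.9%) and 52 lower (25%). Detection on all 6 metformin arrays held for 113, of which 50 passed (44.2%), 19 as higher (16.8%) and 31 as lower (27.4%). At least 1 metformin array detected 167, of which 48.5% passed. The median change was -0.24 over all tested and -0.35 over those 113. Of the tested microRNAs 41 were detected on no metformin array, entered only through the vehicle arrays, and could not differ here.

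The groups did not overlap for 112 of 208 microRNAs (53.8%). In 29 of these the Dicer shRNA arrays were above (13.9%) and in 83 below (39.9%). Of the 81 calls, 78 had groups that did not overlap. The microRNAs named below for their change were picked among these 78. Lack of overlap, where stated for them, follows from that choice and is no further support. The share of each direction depended on the scaling. Scaling to the median gave 23 higher and 106 lower, entries that derive from tRNA, rRNA or snRNA as the reference gave 19 and 127, and viral microRNA names as the reference gave 28 and 24. These scalings moved the median change of the 113 to -0.76, -1.42 and -0.02. Of the 29 higher calls, 15 passed under each of 6 other scalings and 20 kept their direction under each. Of the 52 lower calls, 20 passed under each and 47 kept their direction. In 19 of the 81 calls, 5 higher and 14 lower, 1 metformin group lay wholly at the floor. Undetected signals are set to the floor under any scaling, so such calls could hardly turn. The counts of kept directions therefore say little about them.

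**Figure D1:**
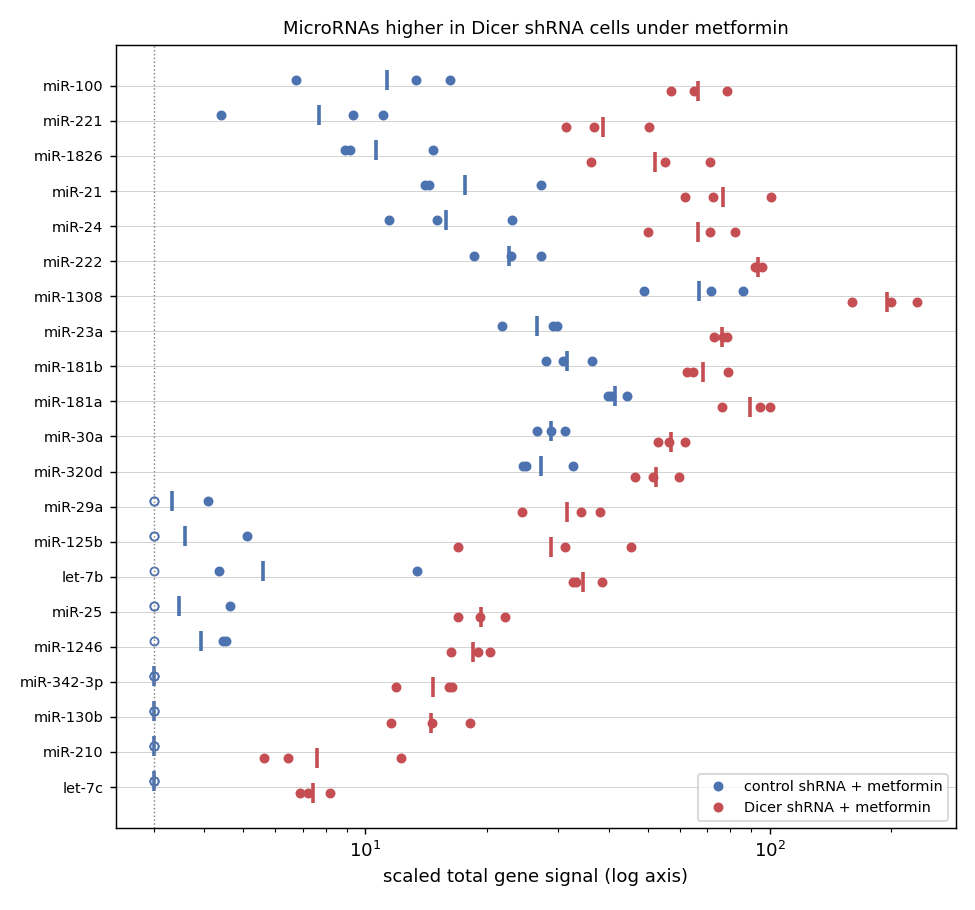
Scaled total gene signal (log axis) of 21 microRNAs that passed as higher in Dicer shRNA cells, 1 point per array, with control shRNA in blue and Dicer shRNA in red; vertical bars are group means of log2 values and open circles sit at the floor (dotted line). Rows were picked among calls whose groups do not overlap, so the 3 red points lie right of the 3 blue points by selection. The last 4 rows were picked for no detection on control arrays, which sit at the floor.

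The mature sequences of the higher microRNAs are shown because several share a seed or differ by single bases from relatives that were not detected. RefSeq sequences (GRCh38.p14) were matched for 180 of the 208 tested microRNAs, 68 by the same name and 112 by a table from the old name to the current arm. Each sequence runs 5′ to 3′ with the seed, bases 2 to 8, in capitals.
miR-221: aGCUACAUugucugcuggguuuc
miR-222: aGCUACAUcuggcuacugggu
miR-181a: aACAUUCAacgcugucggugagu
miR-181b: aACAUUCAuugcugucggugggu
miR-25: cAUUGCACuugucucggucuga
miR-92a: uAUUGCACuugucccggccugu
miR-100: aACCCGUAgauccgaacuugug
miR-99b: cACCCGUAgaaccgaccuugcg
let-7b: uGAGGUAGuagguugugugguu
let-7c: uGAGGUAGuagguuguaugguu
miR-29a: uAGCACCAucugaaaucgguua
miR-125b: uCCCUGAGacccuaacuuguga
miR-23a: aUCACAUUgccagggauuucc
miR-24: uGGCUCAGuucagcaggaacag
miR-21: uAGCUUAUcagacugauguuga
miR-342-3p: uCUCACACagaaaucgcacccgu
miR-130b: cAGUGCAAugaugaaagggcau
miR-210: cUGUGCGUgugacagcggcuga
The pairs miR-221 and miR-222, miR-181a and miR-181b, and miR-25 and miR-92a each share a seed, and both tested members of each seed passed as higher. Of the 3 tested members with the seed of miR-100, miR-99b passed too, and miR-99a was detected on no metformin array.

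miR-221 and miR-222 repress the cell-cycle inhibitor p27 and are abundant in mesenchymal breast lines. miR-221 signal was 4.40, 11.1 and 9.30 on the control shRNA arrays and 36.8, 50.3 and 31.3 on the Dicer shRNA arrays, a change of 2.33 ± 0.30 (5.03-fold, adjusted p 0.00014, limma). miR-222 signal was 18.6, 27.3 and 23.0 against 92.7, 96.0 and 92.1, a change of 2.05 ± 0.13 (4.13-fold, adjusted p 8.2e-07, limma). All 3 Dicer shRNA arrays were above all 3 control shRNA arrays for both. The hairpins lie within 968 bases of each other on chromosome X, from 45746157 to 45747124, inside the gene MIR222HG (GRCh38.p14). The table used here gives gene spans, so exon and intron were not told apart for any locus below.

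miR-21, which represses PDCD4 and is abundant in many tumours, had a signal of 14.1, 27.2 and 14.4 in control shRNA cells and 72.3, 101 and 61.6 in Dicer shRNA cells. The groups were well apart and the change was 2.12 ± 0.27 (4.34-fold, adjusted p 0.00013, limma). Its mature strand is read from chromosome 17, 59841273 to 59841294 on the plus strand, within the span of VMP1. The opposite arm of the same hairpin, miR-21*, was detected on all 6 arrays and changed by -0.22 ± 0.18, which did not pass.

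miR-100, a repressor of mTOR, and miR-125b, a relative of lin-4 of the worm, are encoded within MIR100HG on chromosome 11. The same mature miR-125b is also encoded on chromosome 21 within MIR99AHG, and the array does not tell these loci apart. miR-100 signal was 6.76, 16.2 and 13.3 against 65.1, 78.7 and 57.1, a change of 2.55 ± 0.27 (5.85-fold, adjusted p 3.3e-05, limma), and the groups did not overlap. It differs from miR-99a by 1 base (U16A, miR-99a first, counted from 1 at the 5′ end), and miR-99a was not detected on these arrays. miR-125b was detected on 1 control shRNA array, with a signal of 5.11, and reached 31.2, 45.3 and 17.0 in Dicer shRNA cells. Its change of 3.01 ± 0.34 was limited by the floor (adjusted p 6e-05, limma). miR-99b, on chromosome 19 in the span of SPACA6, rose by 0.92 ± 0.13, although it was -0.15 after scaling to the tRNA, rRNA and snRNA entries. Its close neighbour miR-125a-5p was detected on none of the 6 arrays.

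The let-7 family represses RAS and HMGA2 mRNAs and is a classical Dicer product. Of 6 tested members 2 passed as higher, let-7b and let-7c, and let-7a, let-7f, let-7g and let-7i were detected on no metformin array, which set the median of the list at 0.00. let-7b was not detected on 1 control shRNA array, gave 4.34 and 13.4 on the others, and gave 33.1, 38.5 and 32.6 in Dicer shRNA cells. Its change was 2.63 ± 0.45 (adjusted p 0.00094, limma), and the groups did not overlap. let-7c was detected on none of the control shRNA arrays and at 6.90, 8.19 and 7.23 on the Dicer shRNA arrays, at least 2.47-fold above control (limma adjusted p 0.0015). let-7b and let-7c differ at 1 base (G17A), and signal shared between their probes was not tested. let-7c lost its call after scaling to viral names.

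miR-29a, of a family that represses collagen and DNA methyltransferase mRNAs, was higher in Dicer shRNA cells. It was detected on 1 control shRNA array at 4.08 and reached 34.1, 38.1 and 24.4 in Dicer shRNA cells, a change of 3.25 ± 0.18 (adjusted p 3e-07, limma) whose size rests on the floor. Both relatives with the same seed, miR-29b and miR-29c, were detected on no metformin array, and miR-29c differs from miR-29a by C10U. miR-29a is read from chromosome 7, 130876748 to 130876769 on the minus strand, and its hairpin lies with 1 of the hairpins of miR-29b in a span of 793 bases.

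The hairpin of miR-23a and 1 hairpin of miR-24 lie within MIR23AHG on chromosome 19. The hairpin of miR-27a lies between them in a span of 373 bases (13836287 to 13836659). The same mature miR-24 is also encoded on chromosome 9 within AOPEP, and the array does not tell these loci apart. miR-24, a repressor of cell-cycle genes, had a signal of 11.5, 23.1 and 15.1 against 71.3, 82.3 and 50.1, a change of 2.07 ± 0.25 (4.19-fold, adjusted p 9.7e-05, limma). miR-23a had 21.8, 29.2 and 29.8 against 78.5, 76.8 and 73.0, a change of 1.51 ± 0.14 (2.85-fold, adjusted p 9.8e-06, limma). Neither pair of groups overlapped, while miR-27a was detected on no metformin array. Of 6 tested members of the miR-23/27/24 clusters 2 passed, both higher, with a median of 1.01 that ranged from 0.37 to 1.72 over the other scalings. miR-23b, which differs from miR-23a at U19A over their shared length, was detected on 0 control and 2 Dicer shRNA arrays and did not pass (1.04 ± 0.38, adjusted p 0.057, limma).

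miR-181a and miR-181b, which share a seed and act in lymphocyte development, moved together. miR-181a signal was 39.9, 40.4 and 44.3 against 94.5, 100.1 and 76.2, a change of 1.11 ± 0.13 (adjusted p 5.4e-05, limma). miR-181b signal was 27.9, 30.9 and 36.3 against 64.8, 78.9 and 62.3, a change of 1.11 ± 0.14 (adjusted p 0.00014, limma). The groups did not overlap for either. After scaling to the tRNA, rRNA and snRNA entries the median of the pair was 0.04 and neither passed.

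Of the miR-17/92 clusters, whose members promote proliferation in many tumours, 10 were tested, 2 passed as higher and 6 were detected on no metformin array. miR-25 was detected on 1 control shRNA array at 4.62 and reached 19.3, 22.1 and 16.9 in Dicer shRNA cells, a change of 2.48 ± 0.17 (adjusted p 1e-06, limma). Its hairpin shares 515 bases of chromosome 7 inside MCM7 with those of miR-93, detected on 1 Dicer shRNA array, and miR-106b, detected on none. miR-92a, the last hairpin of MIR17HG on chromosome 13 with a copy on chromosome X, rose by 0.83 ± 0.14 but was -0.24 after scaling to the tRNA, rRNA and snRNA entries. Its neighbours miR-17, miR-18a, miR-19a and miR-20a were not detected on these arrays, and miR-19b was detected on 2 Dicer shRNA arrays (0.98 ± 0.42, adjusted p 0.089, limma).

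Further single members were detected in Dicer shRNA cells and on none of the control shRNA arrays. miR-342-3p, encoded within EVL on chromosome 14, gave 16.4, 16.1 and 11.9 at least 4.88-fold above control (limma adjusted p 1.8e-07). miR-130b gave 14.7, 18.1 and 11.6 at least 4.83-fold above control (limma adjusted p 1.7e-06), while its relative miR-130a was detected in neither group. miR-210, the microRNA most widely induced by hypoxia, gave 6.45, 12.2 and 5.61 at least 2.53-fold above control (limma adjusted p 0.011). miR-210 did not pass after scaling to the median or to viral names. miR-199a-5p was detected on 2 Dicer shRNA arrays and passed with 0.71.

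miR-30a, of a family with roles in epithelial state and autophagy, had 26.7, 31.2 and 28.8 against 56.5, 61.9 and 53.1. These groups were clearly apart, with a change of 0.98 ± 0.10 (1.98-fold, adjusted p 3.1e-05, limma), but the value was -0.09 after scaling to the tRNA, rRNA and snRNA entries. miR-30d rose by 0.33 ± 0.09 and lay below 0 under 3 of the 6 other scalings. Without replicate 1 of control shRNA or replicate 1 or 2 of Dicer shRNA it did not pass (0.27 to 0.32, adjusted p 0.062 to 0.064, limma). miR-26a, miR-30b, miR-30c and miR-30e were detected on no metformin array. In the group of miR-15, miR-16, miR-103 and miR-107, 0 of 5 tested members passed. miR-103 and miR-107 were not detected, and miR-16, detected on 1 control shRNA array, changed by -0.57 ± 0.38 (adjusted p 0.27, limma). miR-34a, a target of p53, and miR-200c, a repressor of ZEB1, were detected on no metformin array and have no fold.

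The 4 tested members of the miR-320 family share a seed and went different ways. Their sequences are given because the array separates entries that are the same over most of their length; miR-320a is left out.
miR-320b: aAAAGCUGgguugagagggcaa
miR-320c: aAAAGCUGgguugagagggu
miR-320d: aAAAGCUGgguugagagga
miR-320b and miR-320c are alike over their first 19 bases and differ by C20U, and miR-320c and miR-320d are alike over their first 18 and differ by G19A. miR-320c signal was 3599, 3280 and 3216 in control shRNA cells and 801, 764 and 1135 in Dicer shRNA cells, a change of -1.92 ± 0.17 (3.80-fold lower, adjusted p 8.5e-06, limma). miR-320d signal was 24.6, 24.9 and 32.6 against 51.4, 59.7 and 46.5, a change of 0.94 ± 0.13 (1.92-fold higher, adjusted p 0.0002, limma). The groups did not overlap for either entry, in opposite directions. miR-320a (-0.06 ± 0.14) and miR-320b (0.05 ± 0.13) did not pass. miR-320c kept its call under each of the 6 other scalings, from -2.99 to -1.37, and miR-320d was -0.13 after scaling to the tRNA, rRNA and snRNA entries. What each probe hybridises to was not tested.

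**Figure D2:**
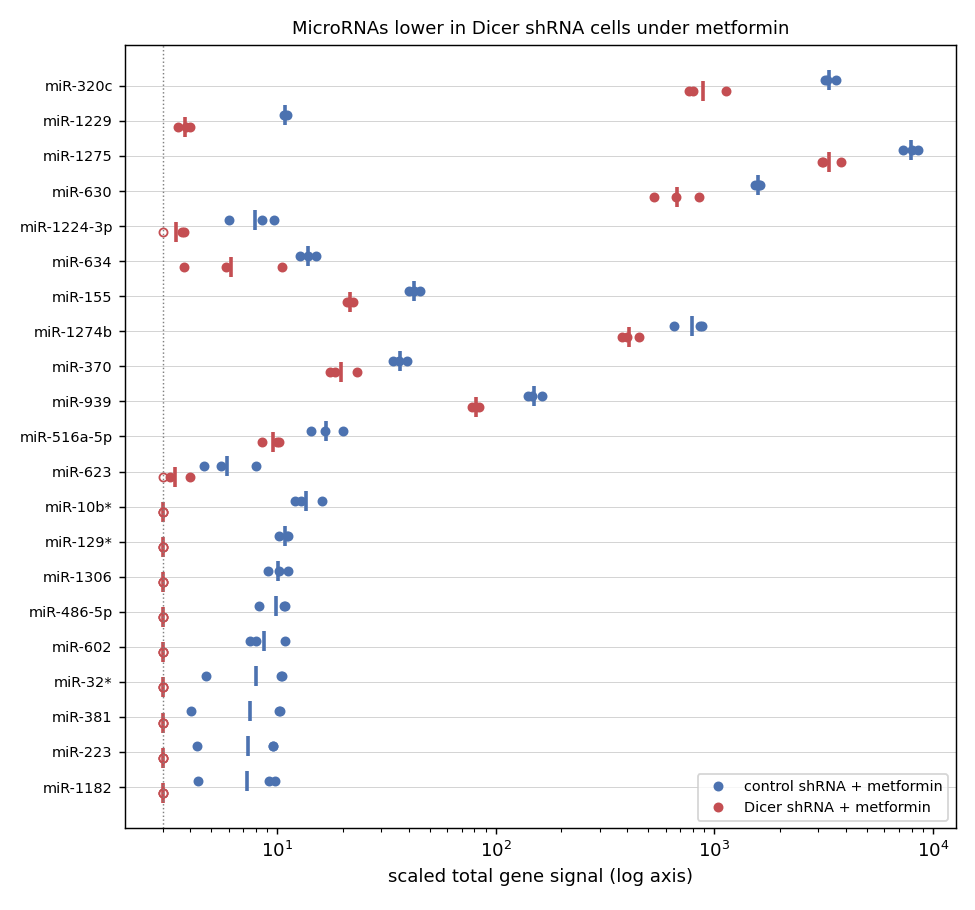
Scaled total gene signal (log axis) of 21 microRNAs that passed as lower in Dicer shRNA cells, 1 point per array, with control shRNA in blue and Dicer shRNA in red; vertical bars are group means of log2 values and open circles sit at the floor (dotted line). Rows were picked among calls whose groups do not overlap, so the separation in each row follows from the selection. miR-320c, miR-1275 and miR-630 lie far above the floor. The last 9 rows were picked for no detection on Dicer shRNA arrays, which sit at the floor.

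The lower set was mixed. The sequences shown are those of the lower members whose values the text gives in full and of miR-129-3p, which shares its seed with miR-129*.
miR-155: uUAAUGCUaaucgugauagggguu
miR-10b*: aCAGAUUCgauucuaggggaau
miR-129*: aAGCCCUUaccccaaaaaguau
miR-129-3p: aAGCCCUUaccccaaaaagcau
miR-425*: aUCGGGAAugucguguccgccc
miR-1306: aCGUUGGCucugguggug
miR-1275: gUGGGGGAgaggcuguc
miR-630: aGUAUUCUguaccagggaaggu
miR-1229: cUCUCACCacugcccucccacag
miR-1224-3p: cCCCACCUccucucuccucag
miR-370: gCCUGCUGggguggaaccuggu
miR-33a: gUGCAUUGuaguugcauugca

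miR-155, induced by inflammatory signals and processed from the transcript MIR155HG on chromosome 21 (25573983 to 25574006, plus strand), was lower in Dicer shRNA cells. Its signal was 45.2, 40.1 and 42.2 in control shRNA cells and 21.4, 22.3 and 20.9 in Dicer shRNA cells. The groups were far apart beside their narrow spread, with a change of -0.98 ± 0.10 (1.97-fold lower, adjusted p 3.5e-05, limma), and the call held under each other scaling. Of the other inflammation-linked members, miR-21 rose and miR-146a, detected on 2 Dicer shRNA arrays, did not pass (0.73 ± 0.29, adjusted p 0.069, limma).

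miR-1275 signal was 8541, 7346 and 8015 against 3134, 3128 and 3817, a change of -1.25 ± 0.16 (2.38-fold lower, adjusted p 0.00014, limma). miR-630, encoded within ARIH1 on chromosome 15, had 1620, 1611 and 1530 against 532, 670 and 856, a change of -1.24 ± 0.21 (2.36-fold lower, adjusted p 0.00081, limma). Both lay far above the floor with no overlap between groups, and both calls held under each other scaling. miR-939 had 162, 141 and 146 against 78.2, 81.0 and 84.1, a change of -0.88 ± 0.14 (adjusted p 0.00071, limma).

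Passenger strands are the strands that Argonaute usually discards. Of 23 tested 9 passed, all lower, beside 38.9% of all tested in either direction and 25% as lower, with a median of -0.59 against -0.24 over all tested. Of the 11 detected on all 6 arrays 2 passed as lower, beside 27.4% of all 113 such microRNAs, and their median of -0.33 was near the -0.35 of those 113. The count of lower members was 6 to 19 over the other scalings, with a median from -1.61 to -0.13, and 1 was higher after quantile normalization. miR-10b*, opposite the metastasis-linked miR-10b, had a signal of 16.1, 12.9 and 12.03 in control shRNA cells and was detected on none of the Dicer shRNA arrays, at least 4.51-fold lower (adjusted p 1.5e-07, limma). miR-129* had 11.1, 10.2 and 11.2 and was at least 3.61-fold lower (adjusted p 1.5e-07, limma). miR-425* had 11.8, 12.3 and 12.4 and was detected on 1 Dicer shRNA array at 5.02, a change of -1.77 ± 0.17 (adjusted p 2e-05, limma). Each of these lay near the floor even where it was detected, so the size of its change rests on the floor. With vehicle, miR-10b* was detected on no array, miR-129* on 1 control shRNA array only and miR-425* on 1 Dicer shRNA array only. miR-135a*, miR-625*, miR-149*, miR-32*, miR-30c-1* and miR-33b* made up the rest of the 9. miR-33b* has the same signal as miR-33a on all 12 arrays, so its call cannot be credited to the passenger strand alone. miR-625* did not pass when any 1 metformin array other than Dicer shRNA replicate 3 was left out (-1.14 to -0.73, adjusted p 0.074 to 0.16, limma).

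Among microRNAs with a matched sequence, both arms were tested for 17 hairpin genes, with miR-199a counted at each of its genes. Examples with a call in 1 arm follow. let-7b rose while let-7b*, detected on all 6 arrays, did not pass (-0.45 ± 0.47). miR-181a rose while miR-181a-2* was not detected, and miR-23a rose while miR-23a*, at 0.98 ± 0.48, did not pass. On the lower side, miR-125a-3p fell by 0.58 while miR-125a-5p was not detected, and miR-1224-3p fell by 1.19 while miR-1224-5p, at -0.46 ± 0.18, did not pass (adjusted p 0.069, limma). miR-149* fell by 1.10 and miR-149, at -0.63, did not pass. The difference between arms was not tested.

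Mirtrons skip Drosha and still need Dicer. Of 14 tested mirtron arms 4 passed, all lower, and every change was below 0, from -1.53 to -0.09 with a median of -0.46. Of all tested 25% passed as lower and the median was -0.24, and over those detected on all 6 arrays the medians were -0.49 for mirtron arms and -0.35 for all 113. miR-1229, within MGAT4B on chromosome 5, had 10.9, 10.8 and 11.1 against 3.99, 3.52 and 3.83, a change of -1.53 ± 0.36 (adjusted p 0.0066, limma). miR-1224-3p had 9.65, 6.04 and 8.51 against 3.77, 3.67 and 2.93, a change of -1.19 ± 0.26 (adjusted p 0.0043, limma). miR-1228 (-0.51) and miR-1238 (-0.46) passed as well, while both arms of miR-1225 and of miR-877 did not. The list's median lay between -1.53 and -0.13 over the other scalings, and the count of lower arms between 2 (scaled to viral names) and 13 (scaled to the tRNA, rRNA and snRNA entries), with 1 arm higher after quantile normalization. With 1 metformin array left out it was 2 without replicate 1 or 3 of control shRNA or replicate 1 or 2 of Dicer shRNA, 3 without control shRNA replicate 2 and 6 without Dicer shRNA replicate 3. In the 4 of these settings with 2 lower arms miR-1228 was -0.49 to -0.42 (adjusted p 0.082 to 0.11, limma), and miR-1238, which also failed without control shRNA replicate 2, was -0.53 to -0.40 (adjusted p 0.053 to 0.15, limma).

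Entries that derive from tRNA, rRNA or snRNA, and are not cut by Dicer in the usual way, went both ways. All 9 tested passed, 4 higher and 5 lower, against 38.9% of all tested. miR-1826 had 9.19, 14.7 and 8.93 against 36.1, 71.2 and 55.2, a change of 2.29 ± 0.28 (4.90-fold, adjusted p 0.00011, limma). miR-1308 had 48.8, 71.7 and 86.1 against 199.9, 232 and 159.9, a change of 1.54 ± 0.20 (2.91-fold, adjusted p 0.00014, limma). Neither pair of groups overlapped, and miR-1246, detected on 2 control shRNA arrays, rose by 2.24 ± 0.16 and miR-1274a by 0.60 ± 0.16. miR-1274a did not pass after scaling to the median and was -0.47 after scaling to the list's own entries, where miR-1826 was 1.22 and miR-1308 was 0.47. miR-1274b had 877, 863 and 658 against 379.5, 454 and 398, a change of -0.95 ± 0.17 (1.94-fold lower, adjusted p 0.0011, limma). miR-720 (-0.67), miR-1260 (-0.54), miR-1280 (-0.49) and miR-923 (-0.34) were lower too. The count of lower entries was 1 after scaling to viral names and 2 after quantile normalization, and 2 to 4 with any 1 metformin array left out. miR-1280 did not pass when any 1 of the 6 was left out (adjusted p 0.051 to 0.13, limma), miR-1260 when any 1 other than Dicer shRNA replicate 3 was (adjusted p 0.059 to 0.13, limma), and miR-923 when Dicer shRNA replicate 1 was (-0.28, adjusted p 0.052, limma).

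**Figure D3:**
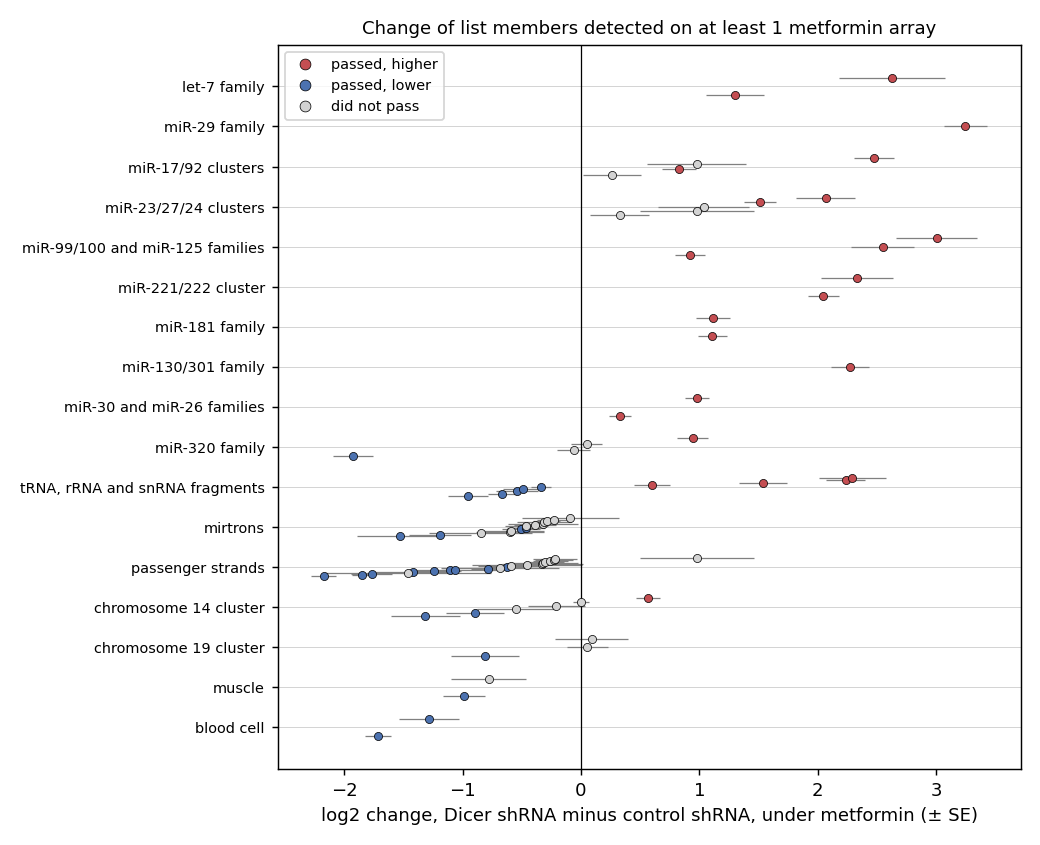
Log2 change ± SE (Dicer shRNA minus control shRNA, both with metformin) of the tested members of 17 lists that were detected on at least 1 metformin array; red points passed as higher, blue as lower and grey did not pass. Points of the guide strand families at the top lie mostly to the right of 0, and those of mirtrons, muscle and blood cell entries lie to its left.

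miR-33a lies within SREBF2 and represses cholesterol export, and miR-370 represses the carnitine palmitoyltransferase CPT1A. miR-33a and miR-33b* carry 1 and the same signal throughout the deposited arrays, so their value is that of the pair. It was 7.81, 7.06 and 11.3 in control shRNA cells and 5.23 on the 1 Dicer shRNA array that detected it, a change of -1.24 ± 0.22 (adjusted p 0.0013, limma). miR-370 had 39.2, 34.0 and 36.0 against 18.5, 17.4 and 23.2, a change of -0.89 ± 0.24 (adjusted p 0.015, limma). Without replicate 1 of control shRNA or replicate 1 or 2 of Dicer shRNA it did not pass (-0.85 to -0.81, adjusted p 0.052 to 0.058, limma). Of 5 tested metabolic microRNAs these 2 passed, both lower, and miR-378 (0.40 ± 0.15) did not. The counts were 2 lower and 1 higher without scaling, after quantile normalization or with the series matrix.

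miR-1306 lies in the transcript of DGCR8, the partner of Drosha, on chromosome 22 (20086112 to 20086129, plus strand). Its signal was 10.2, 9.12 and 11.2 in control shRNA cells, and it was detected on none of the Dicer shRNA arrays, at least 3.36-fold lower (adjusted p 1.5e-07, limma). No vehicle array detected it. It belonged to a block of later-numbered entries, from miR-1178 to miR-1324, of which 31 were tested, 4 were higher and 12 lower, beside 13.9% and 25% of all tested. Their median of -0.46 lay between -1.53 and -0.13 over the other scalings, and 5 to 28 were lower. Of the imprinted cluster on chromosome 14, which also holds miR-370, 1 of 6 tested members rose, miR-494 (0.57 ± 0.10), and 2 fell, miR-370 and miR-381, the latter at least 2.49-fold lower. miR-494 was -0.50 after scaling to the tRNA, rRNA and snRNA entries, where 0 members were higher and 6 lower, and 0 were higher and 4 lower after scaling to the median. After scaling to viral names 0 were lower, with miR-370 at -0.56 and miR-381 at -0.66. No vehicle array detected miR-381. Of the primate-specific cluster on chromosome 19, miR-516a-5p passed as lower (-0.81 ± 0.29, adjusted p 0.046, limma) and miR-520b (0.05) and miR-520e (0.09) did not. With any 1 metformin array left out miR-516a-5p did not pass (-0.93 to -0.69, adjusted p 0.061 to 0.15, limma).

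The labelled cell type was set against marker lists. These lists were chosen with earlier results of these data known, so the shares below are no independent support for the cell type. Of 10 microRNAs abundant in mesenchymal breast lines 7 were detected on metformin arrays, and their summed signal was 191 to 327 in control shRNA cells and 532 to 657 in Dicer shRNA cells. Of these 7, 6 passed as higher and 0 as lower, beside 17.4% and 31.1% of the 167 detected on a metformin array, with a median of 2.33 that lay between 1.26 and 2.80 over the other scalings. They were miR-29a, miR-125b, miR-100, miR-221, miR-21 and miR-222, while miR-22 did not pass (0.40 ± 0.18, adjusted p 0.11, limma) and was called lower, at -0.67, after scaling to the tRNA, rRNA and snRNA entries. Of 7 epithelial microRNAs, miR-205 alone was detected, and miR-141, miR-200a, miR-200b, miR-200c, miR-203 and miR-429 were not. miR-205 fell by 0.43, but did not pass without scaling, after quantile normalization, after scaling to viral names or with the series matrix. It also lost its call without replicate 2 or 3 of control shRNA or replicate 1 or 3 of Dicer shRNA (-0.45 to -0.30, adjusted p 0.052 to 0.088, limma).

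Few markers of other cell types were detected. Of 7 blood cell microRNAs 2 were detected, the myeloid miR-223 and the erythroid miR-486-5p, with a summed signal of 15.2 to 20.4 in control shRNA cells and 0 in Dicer shRNA cells. miR-486-5p was at least 3.28-fold and miR-223 at least 2.44-fold lower, although miR-223 (-0.63) did not pass after scaling to viral names, while miR-142-3p, miR-142-5p, miR-144, miR-150 and miR-451 were detected on no array here. Of 6 muscle microRNAs 2 were detected, with sums of 24.9 to 29.9 and 7.74 to 21.1, and miR-133b passed as lower (-0.99 ± 0.18, adjusted p 0.0012, limma; detected on 1 Dicer shRNA array). Of 11 microRNAs of other tissues 3 were detected on metformin arrays, with sums of 60.1 to 81.1 and 30.8 to 51.8, and the neural miR-129* and miR-129-3p passed as lower while miR-122, miR-124, miR-9, miR-375, miR-216a and miR-217 were not detected. No vehicle array detected miR-486-5p, miR-223, miR-133b or miR-129-3p. The part of these markers in the results was not tested. In total RNA, fewer cells of a type and less RNA per cell cannot be told apart.

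Features outside the human microRNAs moved too. The 4 detected control features named hur, which the files mark as controls, had a median change of 1.95 (0.39 to 2.60), and for 3 of them all Dicer shRNA arrays lay above all control shRNA arrays. They thus moved in the direction of the guide strands that rose. With vehicle, all Dicer shRNA arrays lay below all control shRNA arrays for these 3 (hur_2, hur_4 and hur_6), while hur_1 overlapped. hur_4 was 3393 to 3841 in control and 1467 to 1912 in Dicer shRNA cells with vehicle. With metformin it was 77.9 to 129 in control and 534 to 799 in Dicer shRNA cells. The 11 viral microRNA names detected on the 6 arrays had a median change of -0.52 (-1.37 to 0.20), and for 8 of them all Dicer shRNA arrays lay below. They moved in the direction of the lower set. Without miR-923 the summed scaled signal was 38387 to 42458 in control shRNA cells and 27498 to 32645 in Dicer shRNA cells. The part of these shifts in the results was not tested.

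Base composition differed between the directions. The median GC content was 47.8% in 24 higher microRNAs with a matched sequence, 59.1% in 46 lower ones and 52.4% in all 180. It ranged from 36.4% to 63.6% among the higher and from 27.3% to 90.9% among the lower ones. A first base of U, which Argonaute binds well, was present in 45.8% of the higher, 23.9% of the lower and 42.8% of all matched microRNAs. Across the 180 microRNAs GC content and change had a Pearson r of -0.20 and a Spearman rho of -0.27. Over the 90 detected on all 6 arrays they were -0.25 and -0.23. The microRNAs share arrays, scaling and probe design, so these values describe the arrays only.

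**Figure D4:**
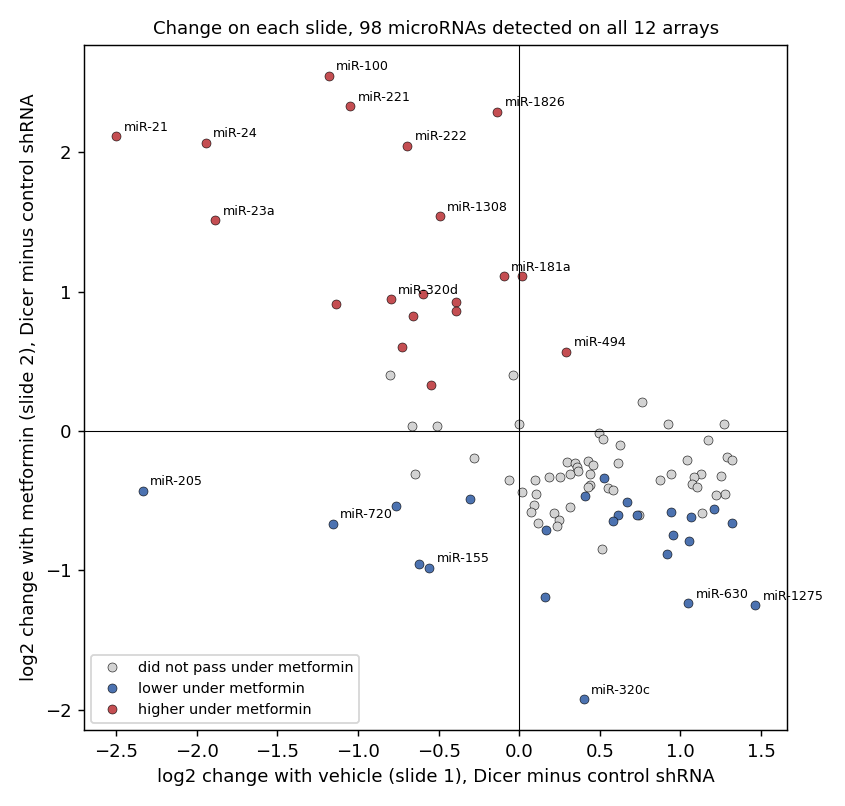
Log2 change (Dicer shRNA minus control shRNA) with vehicle on the x axis and with metformin on the y axis for 98 microRNAs detected on all 12 arrays, coloured by their call under metformin. Most red points lie in the upper left quadrant and most blue points in the lower right, while miR-155, miR-205 and miR-720 lie below 0 on both axes.

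The knockdown difference under metformin was then set against that under vehicle, which came from the 6 other arrays on another slide. No array is shared between both comparisons, and the drug cannot be told apart from the slide. The difference between the 2 changes passed for 159 of 208 microRNAs (76.4%) and for 70 of the 98 detected on all 12 arrays (71.4%). Of the 19 higher calls among those 98, the difference passed for 18, and 14 had passed as lower under vehicle. Of the 24 lower calls the difference passed for 21, and 15 had passed as higher under vehicle. Under vehicle itself 124 of 208 passed in either direction (59.6%). The shares of all 98 that passed as lower or as higher under vehicle are not given here. The calls were picked by their change on the metformin arrays, which also enter the difference, so the counts of 18 and 21 are no separate evidence.

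miR-21 shows the pattern across the 4 groups, with group means of log2 values turned back to signals. It was 957 in control and 169 in Dicer shRNA cells with vehicle, and 17.7 and 76.5 with metformin. The knockdown change was thus -2.50 with vehicle and 2.12 with metformin, and their difference was 4.62 ± 0.38 (adjusted p 2.9e-06, limma). miR-24 (4.01 ± 0.36), miR-100 (3.73 ± 0.38), miR-23a (3.40 ± 0.19), miR-221 (3.38 ± 0.43) and miR-222 (2.74 ± 0.19) had differences of the same sign. In each of these, the order of the lines was reversed between the slides. For each, the Dicer shRNA arrays with metformin stayed below the vehicle arrays of both lines. The control features hur_2, hur_4 and hur_6 showed both traits as well, so the pattern was not particular to microRNAs. For miR-181b the vehicle change was 0.02 and for miR-181a -0.09, neither of which passed.

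On the lower side, miR-1275 had a vehicle change of 1.47 and a difference of -2.71 ± 0.23, and miR-630 a vehicle change of 1.05 and a difference of -2.29 ± 0.29 (adjusted p 3.6e-06 and 6.7e-05, limma). miR-320c did not pass with vehicle (0.40, adjusted p 0.064, limma), and its difference was -2.32 ± 0.24. miR-155 was lower in Dicer shRNA cells on both slides, by -0.56 with vehicle, and the fall with metformin was larger by -0.42 ± 0.15 (adjusted p 0.024, limma). miR-1274b was lower on both slides as well, and its difference of -0.33 ± 0.24 did not pass (adjusted p 0.21, limma).

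**Figure D5:**
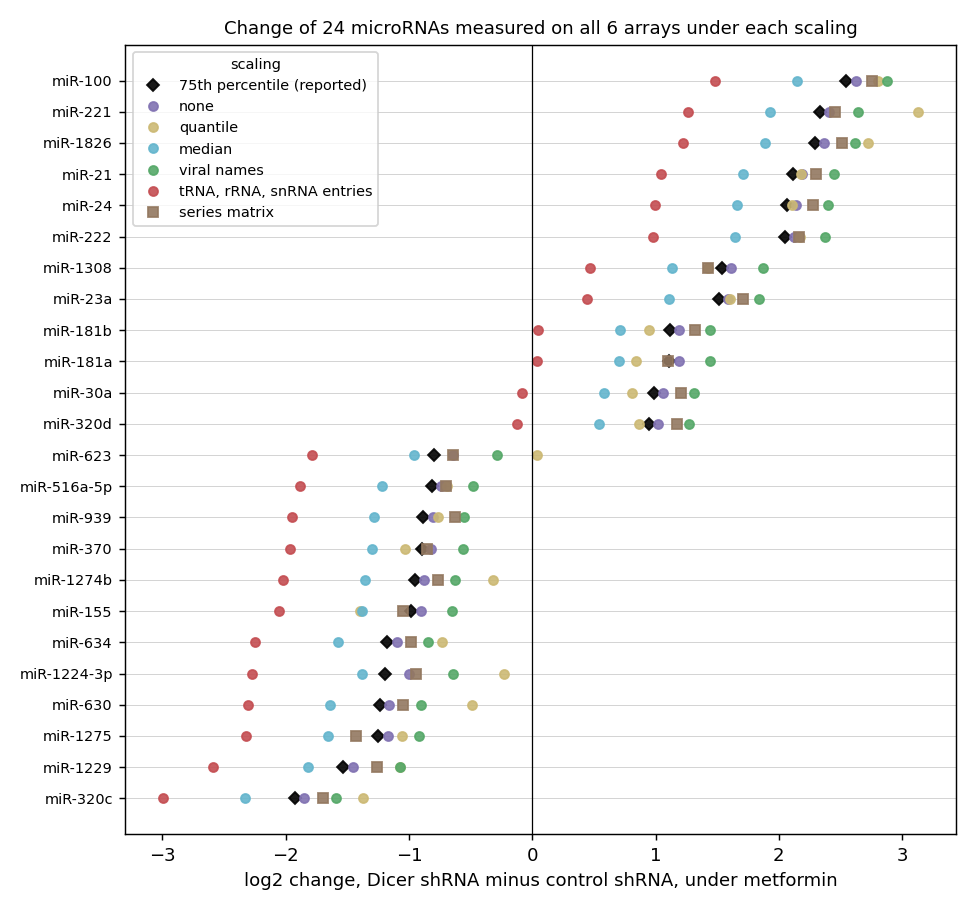
Log2 change (Dicer shRNA minus control shRNA, both with metformin) of 24 microRNAs measured on all 6 arrays under the reported scaling (black diamonds) and 6 others. miR-100, miR-221, miR-1826, miR-21, miR-24, miR-222, miR-1308 and miR-23a stay above 0 under each, miR-30a and miR-320d cross 0 under 1 scaling, and miR-623 crosses it after quantile normalization.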

How the data were processed

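Total RNA was hybridised to 1-colour Agilent microRNA arrays. Per the submitters' processing notes, the software was Agilent Feature Extraction 9.1. Its deposited output, per the file headers, gives each name a linear intensity (total gene signal) and a detection flag. How background was set is not given here. The authors' deposited matrix holds 221 microRNAs as log2 values of unstated normalization and centring, and served as an alternative. Its column medians ran from 3.19 to 4.06. Of the per-sample columns, 0 lacked a sample.

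Arrays were scaled to the 75th percentile of 98 microRNAs detected on all 12, signals under 3.01 (the 5th percentile of detected signals, as a median of 12 arrays) were set to that floor, and log2 was taken. Human microRNAs that every array of at least 1 of 4 groups detected, 208 in all, entered a limma 3.58.1 fit of the 4 group means (R 4.3.3, with data.table at version 1.17.8; residual degrees of freedom 8, prior 1.85), with Benjamini-Hochberg adjustment and calls at 0.05. A group wholly at the floor shows no spread, so errors there are too small, and its fold is a bound, the ratio to the floor. Sequences and figures were handled in Python 3.11.15 (pandas 2.3.3, numpy 2.4.6, matplotlib 3.10.9), and hairpins within 10 kb count as neighbours. The fit was tested on simulated data.

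The text names, among calls with groups that do not overlap, the 12 largest changes per direction detected on all 6 metformin arrays, up to 12 per direction seen in 1 group only, up to 12 seen in part of the other, 11 microRNAs of prior interest, up to 5 members per list, and both arms of hairpins with a call. The members and lists were chosen with earlier results of these data known. Alternatives covered scaling, floor, filter, array weights, the replicate number, the arrays fitted, the series matrix and each array left out.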

Additional observations from a re-analysis of the deposited data

Results flagged for a closer look

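The text names 24 microRNAs for their change among those detected on all 6 metformin arrays. For 18 of them that all 12 arrays detected, the change with metformin differed from that with vehicle, by a limma test of the difference itself. Members of the 24 that not all 12 arrays detected are not listed here. Of all 98 microRNAs detected on all 12 arrays, 70 passed this test (71.4%). The 24 were picked by their change on the metformin arrays, which also enter the difference, so their count is no separate evidence. The differences are metformin minus vehicle on the log2 scale, and slide and metformin cannot be told apart in them. They were above 0 for miR-21 (4.62), miR-24 (4.01), miR-100 (3.73), miR-23a (3.40), miR-221 (3.38), miR-222 (2.74), miR-1826 (2.43), miR-1308 (2.03), miR-320d (1.74), miR-30a (1.58), miR-181a (1.20) and miR-181b (1.10). They were below 0 for miR-1275 (-2.71), miR-320c (-2.32), miR-630 (-2.29), miR-939 (-1.80), miR-1224-3p (-1.35) and miR-155 (-0.42). Groups of 3 arrays were not searched for single outlying arrays.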

How the results depend on the processing

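Of 81 calls (29 higher, 52 lower), counts changed by over 1.5 times under 5 settings. They were 129 (106 lower) after scaling to the median, 52 (24 lower) after scaling to viral names, 146 (19 higher, 127 lower) after scaling to the tRNA, rRNA and snRNA entries, 126 (90 lower) with array weights, and 44 (18 higher, 26 lower) among the 98 detected on all 12 arrays, where fewer were tested and 72 differences between slides passed. With 1 metformin array left out, 62 to 94 passed, 27 to 33 higher and 35 to 61 lower, with the fewest without Dicer shRNA replicate 1 and the most without its replicate 3. The differences between slides numbered 145 to 164, and the detection difference was -22.2 to -11.2. The next lists cover only the 114 microRNAs followed by name. Quantile normalization turned miR-1181 (0.0313), miR-1225-5p (0.49), miR-623 (0.0391) and miR-30d (-0.0214). Scaling to the median turned miR-30d (-0.0748), miR-320b (-0.36) and miR-520b (-0.35). Scaling to the tRNA, rRNA and snRNA entries turned miR-1274a (-0.47), miR-1287 (-0.16), miR-22 (-0.67), miR-30a (-0.0857), miR-30d (-0.74), miR-320b (-1.02), miR-320d (-0.13), miR-378 (-0.67), miR-494 (-0.50), miR-520b (-1.02), miR-520e (-0.98), miR-92a (-0.24) and miR-99b (-0.15). Among calls not followed, miR-1915 and miR-933 also turned after quantile normalization, and miR-151-3p after scaling to the tRNA, rRNA and snRNA entries. miR-923 came to 3.6e-15 after quantile normalization, no change in effect, and the counts of kept directions take it as turned. The cause was not tested. With 1 vehicle array left out 74 to 104 passed, the most (31 higher, 73 lower) without replicate 1 of Dicer shRNA with vehicle. Without scaling 73 passed, and the settings not named here gave 70 to 98. Whether replicate numbers pair the metformin arrays was not settled. Deviations of the 2 metformin groups correlated at 0.08, 0.69 and 0.11 for numbers 1 to 3, so number 2 may share an effect. Arrays of unlike numbers were not correlated for comparison. With the replicate block 83 passed (28 higher, 55 lower). Signals near the floor limit the size of changes.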
